A study of Homo sapiens with 10 samples.

Results

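Tetraspanins are small membrane proteins that cross the lipid bilayer several times and organise other proteins, among them integrins, immunoglobulin family proteins and membrane proteases, into microdomains of the cell surface. Some of them sit mainly at the plasma membrane, whereas CD63 cycles through late endosomes and lysosomes, and CD9, CD63 and CD81 are the usual surface markers of exosomes and other extracellular vesicles. In polarized intestinal epithelium, tetraspanins are found at lateral and basal contacts and along the endosomal route. The 10 genes described here (TSPAN1, TSPAN3, TSPAN6, TSPAN8, TSPAN13, TSPAN15, CD9, CD63, CD81 and CD151) were taken by symbol from the 60554 genes in the expression tables, and each symbol matched a single gene. They form part of a list of 33 genes of the tetraspanin family, and the other 23 are used below for comparison.

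Messenger RNA was measured in Caco-2 cells, a human colon carcinoma line that can form a polarized, enterocyte-like layer. All 10 libraries came from cells of a stable clone carrying dCAS9-KRAB, a nuclease-dead Cas9 joined to a transcriptional repressor, so the controls carried the repressor too. In the gCtl group (5 libraries) the clone had received an empty guide plasmid, whereas in the LHFPL3-AS2_g1 (g1, 3 libraries) and LHFPL3-AS2_g2 (g2, 2 libraries) groups it had received a guide RNA directed at LHFPL3-AS2, a long non-coding RNA. The question was how the transcriptome differed when LHFPL3-AS2 was targeted, and a single starting clone limits how far the values stand for the line as a whole.

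LHFPL3-AS2 itself was not lower in these libraries, where it had only 4.39 to 44.0 estimated counts per library. It was at 2.23 ± 1.17 RPM (reads per 1e+06 estimated counts; SD, n = 5) in gCtl and at 3.45 ± 1.63 RPM (SD, n = 5) in the 5 libraries of the 2 guides together, with 0.84 to 3.73 RPM in single gCtl libraries and 2.03 to 6.01 RPM in the others. The difference of 0.47 in mean log2(RPM + 1) had p = 0.19 in a two-sided exact permutation test. The paper reported depletion of LHFPL3-AS2 with both guides by qPCR relative to GAPDH, and counts this low cannot settle whether it was depleted. Because these counts showed no fall, the g1 and g2 libraries are called libraries labelled knockdown. Library totals ran from 3838803 to 8730468 estimated counts. The summed level of 12 enterocyte markers was 1905 to 2523 RPM in gCtl, 1863 to 2261 RPM in g1 and 1919 to 1974 RPM in g2. EPCAM, an epithelial adhesion protein, was at 645.0 to 815 CPM in gCtl. Single markers were absent or moved under this sum. CDX1, APOA4 and SI had means of 0.05, 0.11 and 0.07 RPM in gCtl, and SI had 0.956 to 2.86 RPM in the libraries labelled knockdown. KRT20 was at 1.05 to 4.04 CPM in gCtl, 1.90 to 4.26 CPM in g1 and 9.86 and 10.6 CPM in g2. KRT18 was at 316 to 649, 262 to 522, and 272 and 297 CPM. A list of 8 fibroblast markers summed to 17.6 to 39.0 RPM in gCtl, 9.24 to 19.6 RPM in g1 and 8.0 to 11.1 RPM in g2, but without PDGFRA the other 7 summed to 5.28 to 11.1, 8.09 to 11.3 and 6.37 to 8.80 RPM. The sums for 7 leukocyte markers (4.85 to 6.78, 4.94 to 9.86 and 9.97 to 13.3 RPM), a list that holds the tetraspanin CD37, and 4 endothelial markers (2.15 to 3.66, 4.93 to 10.1 and 2.20 to 4.52 RPM) were low, and without CD37 the leukocyte sums were 0.579 to 2.27, 2.48 to 3.77 and 0.684 to 0.975 RPM. Goblet cell markers summed to at most 0.902 RPM in gCtl and 0.869 RPM in g1 but to 17.1 and 25.8 RPM in the g2 libraries, and the part of these shifts in the results below was not tested. In these bulk libraries, fewer cells of a kind cannot be told apart from less RNA per cell.

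gCtl replicate 5 stood apart from the other gCtl libraries for several members. It had the lowest gCtl value of CD9, TSPAN8, TSPAN13, TSPAN3 and TSPAN6 and the highest of CD81 and CD151, so values without it are given beside the pooled or single-guide results of these genes. All levels by library below are CPM (counts on the same scale) after normalization by the trimmed mean of M values (TMM), and calls are from edgeR's quasi-likelihood test, in which a gene had to change 1.5-fold or more and reach 0.05 or less after Benjamini-Hochberg adjustment over all tested genes. Of the 10 members, 8 passed the filter on low counts and were tested among 11640 genes. TSPAN1, which is found in many secretory epithelia, had 2 to 11 counts per library (24 in gCtl, 12 in g1 and 11 in g2), and TSPAN15, a partner of the protease ADAM10, had 0 to 3 counts, so changes in either were not detectable at this depth.

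Against gCtl, 5 of the 8 tested members changed in the libraries labelled knockdown, where CD9, CD63, CD81 and CD151 fell and TSPAN8 rose. Over all tested genes, 19.2% were called in this comparison, 11% lower and 8.14% higher. The median log2 fold change was -0.73 over the 8 members and 0.02 over all tested genes. With g1 alone, 4 members were called (CD9, CD81 and TSPAN13 lower, TSPAN8 higher) against 16.7% of all genes (9.91% lower, 6.81% higher). With g2 alone, 5 were called (CD63, CD81, CD151 and TSPAN6 lower, TSPAN8 higher) against 23.7% of all genes (13% lower, 10.7% higher). The median member changed by -0.44 with g1 and -0.74 with g2 on the log2 scale. These comparisons share the gCtl libraries. When the pooled test asked for a change above 1.5-fold in place of any change, no member was called, as against 4.19% of all tested genes. The same test called CD63, CD81 and CD151 with g2 (802 of the 11640 tested genes) and no member with g1 (506 of 11640). Once a trend of the changes on GC content and transcript length was removed, 2 members were called in the pooled comparison (CD81 and TSPAN8), as against 18% of all tested genes.

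CD63 was the most abundant member. It is a protein of late endosomes, lysosomes and secreted vesicles, encoded at chr12:55725323-55729707 (minus strand, GRCh38). Its level was 909.6, 1005, 833, 902 and 927 CPM in gCtl replicates 1 to 5. In g1 it was 777, 630.4 and 636 CPM, and in g2 it was 397 and 375 CPM. All labelled knockdown libraries were below all gCtl libraries, and both g2 libraries were below all g1 libraries; over all tested genes, 15.5% had no overlap between gCtl and the labelled knockdown, 26.6% had none between gCtl and g1, 38% had none between gCtl and g2 and 32.9% had none between the guides. The log2 fold change was -0.70 ± 0.19 (SE) in the labelled knockdown (edgeR, adjusted p = 0.0141). With g2 it was -1.25 ± 0.16 (adjusted p = 0.000101), or 0.421 of the gCtl level. With g1 it was -0.43 ± 0.13 with an adjusted p of 0.0337 (edgeR), short of the 1.5-fold minimum, and it was not called.

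The first-listed RefSeq promoter window of CD63 (250 bases before to 50 after an annotated start; chr12:55728960-55729259, minus strand, GRCh38.p14) is shown because CD63 carries most of the tetraspanin RNA here, with matches to the GC box motif GGGCGG on either strand in capitals:

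CD63: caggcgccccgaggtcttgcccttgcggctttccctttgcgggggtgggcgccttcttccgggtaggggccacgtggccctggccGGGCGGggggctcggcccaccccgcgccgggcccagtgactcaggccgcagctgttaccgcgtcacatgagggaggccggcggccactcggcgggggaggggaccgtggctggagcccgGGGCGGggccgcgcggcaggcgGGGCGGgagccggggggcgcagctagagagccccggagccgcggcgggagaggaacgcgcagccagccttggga

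This window held 3 matches and was 78.3% G and C, against a median of 58.7% over 34943 RefSeq windows, of which 44.9% held at least 1 match. RefSeq lists 8 start windows for CD63, and reads from transcript 3′ ends do not show which start was used.

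CD81 was lower with both guides. It is an exosome marker and the partner of immunoglobulin family proteins such as IGSF8 and PTGFRN, and lies at chr11:2376177-2397419 (plus strand). It was at 103, 112, 101, 108 and 129 CPM in gCtl replicates 1 to 5. The g1 libraries had 79.0, 69.2 and 56.0 CPM and the g2 libraries 41.8 and 22.1 CPM. As for CD63, the 3 groups did not overlap, with g1 between gCtl and g2. CD81 changed by -0.70 ± 0.19 (SE) on the log2 scale with g1 (edgeR, adjusted p = 0.015). With g2 it changed by -1.80 ± 0.23 (edgeR, adjusted p = 0.0001), which is 0.288 of the gCtl level, and in the pooled comparison by -1.05 ± 0.25 (adjusted p = 0.00764). Without gCtl replicate 5 the pooled change was -1.0 (adjusted p = 0.0147). The g1 call was lost without g1 replicate 3 (-0.59) and with the trend on GC content and length removed (-0.36), whereas the calls of CD63 and CD81 with g2 were made under all 25 other settings and left-out libraries. The leading CD81 transcript is 62.7% G and C, and that of CD63 is 48.4%.

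CD151, which binds the laminin-binding integrins and anchors epithelial cells to the basement membrane, lies near the start of the same chromosome (chr11:832843-839831, plus strand). Its gCtl libraries had 59.7, 70.7, 56.7, 60.2 and 71.2 CPM. The g1 libraries had 57.5, 40.3 and 41.9 CPM, and the g2 libraries had 21.7 and 25.7 CPM. One g1 library thus lay within the gCtl range, while both g2 libraries lay below every other library. CD151 fell with g2 by 1.42 ± 0.19 (SE) on the log2 scale (edgeR, adjusted p = 0.000145). The pooled change was -0.77 ± 0.21 (edgeR, adjusted p = 0.0182), and it was not called once the trend on GC content and length was removed (-0.42). Without gCtl replicate 5 it was -0.74 (adjusted p = 0.0309). With g1 the change was -0.45 ± 0.16 (edgeR, adjusted p = 0.0512), and it was not called.

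The 2 guides differed from each other for CD63, CD81 and CD151. Directly compared, g2 was below g1 by 0.82 ± 0.17 (SE) in CD63 (edgeR, adjusted p = 0.0107), by 1.10 ± 0.24 in CD81 (adjusted p = 0.016) and by 0.97 ± 0.20 in CD151 (adjusted p = 0.0121), all on the log2 scale. Of all tested genes, 4.97% were called between the guides and 3.42% were called lower with g2. All 3 calls were lost without g1 replicate 1, when the log2 differences of CD63, CD81 and CD151 were -0.72, -0.97 and -0.79, and when only the g1 and g2 libraries entered the fit. CD81 was also lost without g2 replicate 2 (-0.68). All 3 were lost in the test against a 1.5-fold change. On protein-coding transcripts alone the CD151 difference changed sign, to 0.32 (edgeR, adjusted p = 0.849). Mitochondrial transcripts made up 16.8% and 12.04% of the estimated counts in the g2 libraries, 18.3% to 23.97% in gCtl and 19.0% to 20.6% in g1, so that both g2 libraries lay below all others, and the part of this in the g2 results was not tested.

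CD9 and TSPAN13 were lower with g1. CD9, which sits at the plasma membrane, lies at chr12:6199715-6238271 (plus strand). Its gCtl libraries ranged widely, at 57.0, 18.2, 38.7, 47.9 and 6.16 CPM in replicates 1 to 5. The g1 libraries had 10.3, 6.12 and 7.79 CPM and the g2 libraries 28.3 and 10.8 CPM. gCtl replicate 5 lay within the g1 range, and the g2 libraries lay within the gCtl range. CD9 fell by 2.03 ± 0.54 (SE) on the log2 scale with g1 (edgeR, adjusted p = 0.0149), to 0.245 of the gCtl level, but the call was lost without g1 replicate 2 (-1.88), without g1 replicate 3 (-2.01) and in limma on TPM (-1.51 and -1.44). The change with g2 was -0.78 ± 0.57 (edgeR, adjusted p = 0.327), and the difference between guides was 1.25 with a 95% interval of -0.08 to 2.58 (edgeR, adjusted p = 0.267). The pooled change of -1.40 ± 0.49 had an adjusted p of 0.0484 (edgeR). It was not called in 7 of the 10 fits that left out a library, and without gCtl replicate 5 it was -1.68 with an adjusted p of 0.00838. Of 14 other settings, only 6 called it. DESeq2, limma, protein-coding transcripts alone and removal of the trend on GC content and length did not.

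TSPAN13 lies at chr7:16753535-16784536 (plus strand). It had 26.2, 24.1, 19.0, 26.7 and 11.4 CPM in gCtl replicates 1 to 5. The g1 libraries had 11.5, 12.7 and 5.84 CPM, and the g2 libraries had 22.1 and 8.58 CPM. All g1 libraries were below gCtl replicates 1 to 4, and gCtl replicate 5 fell among them. TSPAN13 fell by 1.12 ± 0.35 (SE) on the log2 scale with g1 (edgeR, adjusted p = 0.032), and by 1.30 without gCtl replicate 5 (adjusted p = 0.00907), but the call was lost in 5 of the 10 fits that left out a library. With g2 it was -0.49 ± 0.38 (edgeR, adjusted p = 0.356). The pooled value of -0.83 (adjusted p = 0.0631) was not called, while without gCtl replicate 5 it was -1.0 with an adjusted p of 0.0263.

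TSPAN8 was the only tested member called higher. It is a tetraspanin of digestive tract epithelium and of several carcinomas, where it is linked to cell motility and vesicle release, and its gene is annotated at chr12:71125085-71441898 (minus strand). TSPAN8 was at 44.0, 27.9, 22.8, 36.8 and 5.80 CPM in gCtl replicates 1 to 5. In g1 it was at 58.0, 59.5 and 62.7 CPM, and in g2 it was at 101 and 40.3 CPM. The g1 libraries lay close together above every gCtl library, whereas one g2 library was inside the gCtl range. The log2 fold change was 1.15 ± 0.39 (SE) with g1 (edgeR, adjusted p = 0.0478). With g2 it was 1.38 ± 0.43 (edgeR, adjusted p = 0.0278), and pooled it was 1.24 ± 0.36 (edgeR, adjusted p = 0.022), or 2.36 times gCtl. Without gCtl replicate 5, the lowest library, the values were 0.87, 1.11 and 0.97 (adjusted p = 0.0278, 0.0116 and 0.0132). The guides did not differ detectably, with g2 at 0.23 above g1 and a 95% interval of -0.78 to 1.24 (edgeR, adjusted p = 0.831). The g1 call was lost in 6 of the 10 fits that left out a library. It was also lost in DESeq2, in limma on TPM, by library totals and when non-coding genes were tested too. Among the fits that left out a library, the pooled call was lost only without gCtl replicate 3 (1.18, edgeR adjusted p = 0.055). The g2 call was lost in 3 of the 10, with 0.57 without g2 replicate 1, and in DESeq2, in limma and by library totals. All 3 calls were lost on protein-coding transcripts alone and in the test against a 1.5-fold change.

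A RefSeq start window of TSPAN8 is shown because this gene went against the other called members. RefSeq gives it 2 overlapping windows, and the one that starts further into the gene is chr12:71157760-71158059 (minus strand, GRCh38.p14). Both lie inside the annotated gene, whose minus-strand start is at 71441898. Capitals mark matches on either strand to GTTAAT, the HNF1 half-site, and to CTTTGA, the TCF/LEF core, both motifs being chosen after the sequence was seen:

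TSPAN8: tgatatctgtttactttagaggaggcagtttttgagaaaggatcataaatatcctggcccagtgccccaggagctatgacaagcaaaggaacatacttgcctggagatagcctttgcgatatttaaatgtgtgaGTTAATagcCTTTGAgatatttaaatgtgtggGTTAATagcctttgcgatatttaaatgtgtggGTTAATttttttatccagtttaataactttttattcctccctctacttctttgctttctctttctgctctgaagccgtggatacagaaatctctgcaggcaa

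It held 3 matches to GTTAAT and 1 to CTTTGA, no GC box, and 38% G and C. The GTTAAT matches lay in near-identical copies of a repeated stretch, so they are not separate occurrences. Over all RefSeq windows, 6.90% held GTTAAT and 12.9% held CTTTGA. Among the 19 windows of the 7 members with a RefSeq window, this was the only one with either motif. A GC box was in at least 1 window of 6 of these members, TSPAN8 among them through its other window. A match in letters is not a binding site.

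TSPAN6 and TSPAN3 changed little in the pooled comparison. TSPAN6, a protein of endosomes and exosome release, lies at chrX:100627109-100639991 (minus strand) and had 145 to 166 CPM in gCtl, with a median of 159.6 CPM. Its g1 libraries were at 172, 205 and 135 CPM and its g2 libraries at 129 and 65.6 CPM, so that g1 fell on both sides of gCtl and both g2 libraries lay below it. TSPAN6 fell by 0.69 ± 0.22 (SE) on the log2 scale with g2 (edgeR, adjusted p = 0.033), but this call was lost in 5 of the 10 fits that left out a library, and without g2 replicate 2 the change was -0.27. Without gCtl replicate 5 it was -0.72 (adjusted p = 0.0329). With g1 the change was 0.12 ± 0.19 (edgeR, adjusted p = 0.707). TSPAN3, which is broadly expressed and lies at chr15:77041404-77083984 (minus strand), had 63.0, 75.6, 64.4, 59.7 and 45.6 CPM in gCtl replicates 1 to 5. It had 74.6, 69.6 and 61.9 CPM in g1 and 78.2 and 40.4 CPM in g2, and the groups overlapped. Its pooled log2 fold change was 0.07 with a 95% interval of -0.30 to 0.45 (edgeR, adjusted p = 0.792), and the sign changed with the scaling and without gCtl replicate 5 (-0.030).

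To compare levels between genes, estimated counts were scaled by annotated transcript length to TPM. In gCtl the order was led by CD63 at 1736 ± 95.5 TPM (SD, n = 5). It was followed by CD81 (96.0 ± 7.88 TPM), TSPAN6 (89.4 ± 5.01 TPM) and CD151 (59.4 ± 5.82 TPM). CD81 and TSPAN6 overlapped between libraries, while all libraries had more TPM of TSPAN6 than of CD151 in gCtl. Then came CD9 (36.7 ± 22.3 TPM), TSPAN8 (28.05 ± 15.6 TPM), TSPAN3 (16.1 ± 4.18 TPM) and TSPAN13 (13.6 ± 4.21 TPM), each overlapping the next, and CD9 overlapping CD151. TSPAN1 was at 0.77 ± 0.53 TPM and TSPAN15 at 0.11 ± 0.10 TPM. CD63 made up 82.4% to 85.1% of the summed TPM of the 10 members in gCtl, 78.1% to 81.8% in g1, and 71.2% and 81.2% in the 2 g2 libraries. By RPM, which does not correct for length, it made up 63.9% to 69.1%, 57.6% to 63.1%, and 48.3% and 63.7%. The leading CD63 transcript is short, and reads from 3′ ends need not scale with length, so the TPM shares depend on that correction. The sum itself was 1915 to 2176 TPM in gCtl, 1319 to 1815 TPM in g1, and 880.4 and 758 TPM in g2. TSPAN8 held 0.288% to 2.10% of this sum in gCtl, 3.43% to 4.51% in g1, and 9.78% and 5.11% in g2. In TPM, TSPAN8 passed CD81, CD151 and CD9 in both guides' mean order, at 63.3 ± 4.47 TPM (SD, n = 3) in g1 and 62.4 ± 33.5 TPM (SD, n = 2) in g2. Its single libraries, at 59.4 to 68.2 TPM in g1, overlapped those of CD81 (45.5 to 71.7 TPM) and CD151 (36.9 to 62.5 TPM) there. In g2 they overlapped those of TSPAN6 (31.5 and 63.5 TPM). These shares are a description, because a fall of CD63 raises the share of every other member. The order depends on length, and by RPM only 5 of the 10 members held the same place in gCtl.

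The deposited values split each gene's reads among annotated transcripts, and this split moved between libraries. For CD63, the retained-intron transcript CD63-015 took 14.3%, 3.36%, 14.9% and 15.1% of the gene's estimated counts in gCtl replicates 1 to 4. It took 0 in gCtl replicate 5 and in all 5 labelled knockdown libraries. With protein-coding transcripts alone, the pooled CD63 change was -0.54 (edgeR, adjusted p = 0.0731) and was not called, while with g2 it was -1.08 (adjusted p = 0.00169). For TSPAN8, the transcript TSPAN8-003 took 35.0%, 27.3%, 0.270%, 41.6% and 4.44% of the gene in gCtl replicates 1 to 5. It took 0 in all g1 libraries and at most 0.650% in g2. On protein-coding transcripts alone, TSPAN8 was not called with either guide or in the pooled comparison. For CD151, the nonsense-mediated decay transcript CD151-002 took 58.8% of the gene in gCtl replicate 5, and 62.8%, 49.9% and 3.52% in g1. It took less than 0.1% in the other gCtl libraries and in g2. On protein-coding transcripts alone the CD151 change with g2 was -1.24 (edgeR, adjusted p = 0.156). With g1 it was -1.56 under that setting and was not called, whereas the pooled fall was still called. gCtl replicate 5 was thus closer to the mean of the g1 libraries than gCtl replicates 1, 2 and 4 were in all 3 genes. Reads from 3′ ends that transcripts share can be divided in more than one way, and the part of that in these shares was not tested.

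Of the other 23 tetraspanin genes, 11 were tested and 4 were called in the labelled knockdown against gCtl, 3 lower and 1 higher, or 36.4% beside 19.2% of all tested genes. Their median log2 fold change was -0.18. TSPAN4, which lies 2.98 kb from CD151 (chr11:842808-867116) and marks migration-associated membrane structures, fell from 9.0 to 18.3 CPM in gCtl to 2.74 to 4.50 CPM in the labelled knockdown. Its log2 fold change was -1.94 ± 0.25 (SE; edgeR, adjusted p = 0.000153). TSPAN9, a tetraspanin known from platelets, fell by 2.17 ± 0.35 on the log2 scale (edgeR, adjusted p = 0.000715), and TSPAN18, known from endothelium, fell by 1.33 ± 0.28 (adjusted p = 0.00405). TSPAN9 was at 3.86 to 11.6 CPM in gCtl and only 1.02 to 2.56 CPM in the labelled knockdown. It thus passed the filter of over 3 RPM through gCtl alone, and its call, counted in the 36.4%, carries that limit. TSPAN31, which is encoded beside CDK4, rose by 1.14 ± 0.23 (edgeR, adjusted p = 0.00322), from 7.32 to 15.2 CPM in gCtl to 18.1 to 29.7 CPM. In all 4 genes the labelled knockdown libraries did not overlap gCtl, as in 15.5% of all tested genes, and no left-out library ended a call. With g2 alone 6 were called (54.5% beside 23.7% of all tested genes), TSPAN14 and the leukocyte tetraspanin CD37 (1.5 ± 0.34, adjusted p = 0.00504 in edgeR) being higher too. CD37 was at 10.2 and 13.1 CPM in g2 and at 2.65 to 5.75 CPM in gCtl.

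Among 18 genes for known tetraspanin partners, 17 were tested and 3 were called in the labelled knockdown, a share of 17.6% beside the 19.2% of all genes. MMP14, a membrane metalloprotease that tetraspanins help to place at the surface, rose by 1.53 ± 0.26 (SE) on the log2 scale (edgeR, adjusted p = 0.00101). It went from 3.52 to 6.80 CPM in gCtl to 8.23 to 19.0 CPM, without overlap. BSG (basigin, CD147) fell by 1.08 ± 0.20 (edgeR, adjusted p = 0.00155), with 32.4 to 71.5 CPM in gCtl and 20.5 to 32.8 CPM in the labelled knockdown. PI4K2B, a lipid kinase that associates with tetraspanins, fell by 1.35 ± 0.44 (edgeR, adjusted p = 0.0366), but the call was lost in 8 of the 10 fits that left out a library. PI4K2B was at 1.06 to 4.71 CPM in gCtl and 0.63 to 2.51 CPM in the labelled knockdown, so it passed the filter on low counts through gCtl alone. No integrin subunit, claudin or ADAM protease of the list was called in this comparison. Among 16 genes of the endosome and vesicle pathway, 15 were tested and 3 were called. SDC1 (syndecan-1), a heparan sulfate proteoglycan that enters exosomes with syntenin, fell by 1.53 ± 0.27 (edgeR, adjusted p = 0.0012). RAB7A, the GTPase of late endosomes, fell by 0.67 ± 0.18 (edgeR, adjusted p = 0.0174), and the call was lost without g2 replicate 2 (-0.56) and in limma on TPM. CHMP4A, a subunit of the membrane-scission complex, rose by 0.59 ± 0.19 (edgeR, adjusted p = 0.0381), at 1.5-fold just past the minimum, and the call was lost in 6 of the 10 fits that left out a library. The called share of this list was 20.0%, also near that of all genes.

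Over the 10 libraries, the genes whose log2(CPM + 1) followed the 3 members with the largest pooled changes most closely were ZFP36L2, CLPP and NUDT21 for CD9 (Pearson r = 0.98 for each). For CD81 they were YTHDF1 (0.99), COLGALT1 (0.98) and SH3BP5 (0.98), and for TSPAN8 they were SPTSSA (0.94), ZNF22 (0.92) and RPP30 (0.92). These values are descriptions over 10 libraries that share gCtl replicate 5, the library at the low end of CD9 and TSPAN8.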

How the data were processed

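Polyadenylated RNA was sequenced from 10 Caco-2 libraries as single-end reads from transcript 3′ ends (Lexogen QuantSeq). The deposited files give the authors' estimated counts per transcript of GENCODE 24, made with kallisto (version 42.5 per the submitters' processing notes) and not normalized. For 199169 transcripts, estimated counts were summed to 60554 genes by gene identifier, the symbol being read from the transcript name, and rounded to whole numbers. Genes with a protein-coding transcript and over 3 RPM in at least 20% of libraries were tested (11640 genes) with edgeR 4.0.16 (glmQLFit, TMM, library size from all estimated counts). The pooled comparison used a fit of 2 groups and the comparisons of single guides a fit of 3 groups. TPM was computed here from estimated counts and annotated transcript length, without effective length, which depends on fragments that 3′ libraries do not sample evenly. Totals of 3838803 to 8730468 counts per library set the precision, and reads carry no molecular identifiers here, so counting error is only approximate. Groups came from the labels; replicate numbers were given here in accession order and only name a library. The labels do not say whether libraries were separate cultures, and p-values then measure only the spread between these libraries, which may be technical. Gene positions are from GENCODE 29 on the same genome build (GRCh38), matched by gene identifier, and promoter windows are from RefSeq (GRCh38.p14), which held 7 of the 10 members. No protein sequence is used here.

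Named genes were all 10 members, the called genes of each list in the pooled comparison (up to 5 by p) and, for the 3 members with the largest pooled change, the 3 genes of highest Pearson r. PDGFRA, EPCAM, CDX1, APOA4, SI, KRT18, KRT20, CD37 and TSPAN14 were named after their values were seen. The members and gene lists were chosen with earlier results of these data known. Alternatives were DESeq2 1.42.0, limma 3.58.1 on log2(RPM + 1), log2(TPM + 1) and log2(TPM + 0.1), library totals in place of TMM, other filters, protein-coding transcripts alone, a test against a 1.5-fold change, fits of only the groups compared and fits leaving out each library. Removal of a trend on GC content and transcript length (99.2% of tested genes had both) was added after seeing the data. The tests were checked on simulated counts.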

Additional observations from a re-analysis of the deposited data

Results flagged for a closer look

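CD81, CD63 and CD151 were flagged because the libraries of the 2 guides differed from each other in a direct test. The log2 fold change of g2 against g1 was -1.10 for CD81, -0.82 for CD63 and -0.97 for CD151 (edgeR, adjusted p = 0.016, 0.0107 and 0.0121). A fit of the g1 and g2 libraries alone called none of them, and on protein-coding transcripts alone the CD151 value was 0.32. PI4K2B was flagged because 1 gCtl library lay far from the others: replicate 5 had 1.06 CPM, against 4.41 to 4.71 CPM in the other 4. Of 18 genes examined this was the only such case, and chance flags about 1 group in 20.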

How the results depend on the processing

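No paired analysis was possible because the labels carry no replicate numbers, and the numbers used here only name libraries in accession order. Of 792 recomputed member values, 670 kept their direction and their side of the threshold, 84 lost a call, 17 gained one and 21 changed sign. Counts of called members, of 8 tested, were 5 (pooled), 4 (g1), 5 (g2) and 3 (g2 against g1). Over all 11640 tested genes the counts were 2232, 1947, 2756 and 579. Under limma on log2(TPM + 0.1) and log2(TPM + 1) the members called were 3 and 3 (pooled) and 1 and 1 (g1). Over all genes these were 2046 and 2079 (pooled) and 1607 and 1692 (g1). With protein-coding transcripts alone 2 (pooled), 2 (g1) and 2 (g2) members were called, beside 1752, 1489 and 2016 of all genes. In tests against a 1.5-fold change the members were 0, 0, 3 and, between guides, 0, beside 488, 506, 802 and 92 genes. A fit of only the guides compared gave 0 members and 172 of 11629 genes. Removing the trend on GC content and length gave 2 members (pooled) and 2095 genes. Leaving out a library gave 3 to 6 (pooled), 0 to 4 (g1), 3 to 5 (g2) and 0 to 4 (between guides). Over all tested genes, the pooled fits that left out a library called 1701 to 2424. Against a 1.5-fold change, 2 of 11 tested other tetraspanins and 1 of 17 tested partner genes were called in the pooled comparison, beside 4.19% of all tested genes. By RPM in place of TPM, 5 (gCtl), 5 (g1) and 4 (g2) of 10 members held their place in the order.

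All sign changes were in uncalled values, except CD151 between the guides, which was 0.32 on protein-coding transcripts alone (adjusted p = 0.849), where its counts shift between transcripts. The pooled TSPAN3 value became -0.014 by library totals, -0.033 by limma on log2(RPM + 1), -0.20 and -0.19 by limma on log2(TPM + 0.1) and log2(TPM + 1), -0.043 with the GC and length trend removed and -0.030 to 0.20 when a library was left out (negative without g2 replicate 1, at -0.016, or gCtl replicate 5). TSPAN3 with g1 was -0.10 and -0.10 by limma on both TPM scales. Leaving out a library moved TSPAN3 from -0.61 to 0.35 with g2 and from -0.75 to 0.21 between guides, and TSPAN6 from -0.32 to 0.019 pooled and from -0.033 to 0.25 with g1. It moved TSPAN13 from -1.32 to 0.054 with g2 and from -0.18 to 1.19 between guides, and TSPAN8 between guides from -0.57 to 0.77. TSPAN8 between guides was -0.023, -0.13 and -0.13 by limma on log2(RPM + 1), log2(TPM + 0.1) and log2(TPM + 1). The cause of these changes was not tested. Depth limited TSPAN1 and TSPAN15, and with 2 g2 libraries a fit without one assumes that the other varies like the rest.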

Other observations

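CD151, TSPAN4 and CD81 all lie in the first 3000000 bases of chromosome 11, and all 3 were lower in the labelled knockdown. This stretch was looked at after these values were seen. Of the 41 other tested genes there, 10 were called lower and 1 higher in the labelled knockdown, or 24.4% lower beside 11% of all tested genes, with a median log2 fold change of -0.30. The median GC content of their leading transcripts was 62.5%, beside 47.3% over all tested genes. The L6 family, membrane proteins that resemble tetraspanins in topology, had 4 of 6 genes tested and none called in the labelled knockdown (edgeR). With g2, TM4SF4 was called higher, at 14.0 and 3.92 CPM beside 2.11 to 3.37 CPM in gCtl, with a log2 fold change of 1.70 ± 0.47 (SE; edgeR, adjusted p = 0.0152). With g1 it was at 0.42 to 1.83 CPM, below every gCtl library, and was not called (adjusted p = 0.16).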
